A study of Mus musculus with 8 samples.

Results

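A set of 1537 bins of 100 kb gained compartment score in mouse embryonic stem cells (mESCs) that lacked SUV39H1 and SUV39H2, and what these bins hold, where they lie and how they behaved in a separate line without SETDB1 is described here. The score comes from Hi-C, which counts contacts between pieces of chromatin in fixed nuclei. It is the first eigenvector of the contact map of 1 chromosome, has no physical unit, and is positive in the A compartment and negative in the B compartment. The bins were selected on measured values, the scores of the 4 Suv39h libraries: a bin is gaining where the lower score of Suv39h DKO and Suv39h DKO + UNC lies at least 0.003 above the higher score of Suv39h WT and Suv39h WT + UNC. Of the 24005 autosomal bins scored in any library, 23976 had a score in those 4 libraries, and 23972 had one in all 8, the gaining bins among them. The gaining bins are 6.41% of the 23972. The mirrored rule, with both DKO scores below both WT scores by 0.003, gave 1422 losing bins, 5.93%.

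Suv39h WT and Suv39h DKO were untreated cells of separate mESC clones, the second lacking both SUV39H1 and SUV39H2, so that effects of genotype and of clone cannot be told apart. Suv39h WT + UNC and Suv39h DKO + UNC were the same clones after 2 µM UNC0642, which inhibits G9a and its partner GLP, both methyltransferases, for 3 days. The Setdb1 line, 1 clone (#33-6) with a conditional Setdb1 allele, gave Setdb1 WT (untreated), Setdb1 WT + UNC (2 µM UNC0642 for 3 days), Setdb1 KO (800 nM 4-hydroxytamoxifen, which removes SETDB1, for 5 days) and Setdb1 KO + UNC (4-hydroxytamoxifen for 2 days, then UNC0642 for 3 days). Both KO libraries of this line had 4-hydroxytamoxifen and both WT libraries had none. Effects of the drug and of SETDB1 loss therefore cannot be told apart. Each of the 8 groups is 1 library here, so a difference between 2 libraries has no replicate check, and the score files carry no read depth. The scores of each chromosome average 0 in each library, so a gain in some bins is always set against a loss in others.

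SUV39H1 and SUV39H2 are histone methyltransferases that place trimethylation on lysine 9 of histone H3 (H3K9me3), above all at pericentromeric heterochromatin, where HP1 proteins bind it. SETDB1 places the same mark mainly at endogenous retroviruses and at other sites to which KRAB zinc finger proteins recruit it, and G9a and GLP place dimethylation. The A compartment gathers gene-rich, open chromatin, and the B compartment gathers gene-poor chromatin that often lies at the nuclear lamina.

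The longest stretches of adjacent gaining bins held genes with very different promoters, and 5 promoters are shown for that reason. They run from 250 bases before to 50 bases after the start site, are taken from RefSeq (GRCm38.p6, which shares primary coordinates with the authors' mm10), and are written 5′ to 3′ on the gene's strand with CG dinucleotides in capitals. Ptprm, a receptor tyrosine phosphatase of cell-cell contacts, and Lrrc30, a leucine-rich repeat protein, start in a stretch on chromosome 17 (promoters at chr17:67354410-67354709 and chr17:67632674-67632973, minus strand). Gadl1, an amino acid decarboxylase, and Tgfbr2, the type II receptor for TGF-beta, start in a stretch on chromosome 9 (chr9:115909205-115909504, plus strand, and chr9:116175314-116175613, minus strand). Sall1, a zinc finger transcription factor needed for kidney development, is the single gene of a stretch on chromosome 8 (chr8:89044113-89044412, minus strand).
Ptprm: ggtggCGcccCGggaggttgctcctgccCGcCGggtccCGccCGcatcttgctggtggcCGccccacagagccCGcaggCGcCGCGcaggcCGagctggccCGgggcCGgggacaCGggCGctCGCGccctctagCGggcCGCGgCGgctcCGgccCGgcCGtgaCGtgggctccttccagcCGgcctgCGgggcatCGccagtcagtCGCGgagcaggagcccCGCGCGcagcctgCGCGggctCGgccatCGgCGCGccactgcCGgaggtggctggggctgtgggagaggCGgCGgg
Lrrc30: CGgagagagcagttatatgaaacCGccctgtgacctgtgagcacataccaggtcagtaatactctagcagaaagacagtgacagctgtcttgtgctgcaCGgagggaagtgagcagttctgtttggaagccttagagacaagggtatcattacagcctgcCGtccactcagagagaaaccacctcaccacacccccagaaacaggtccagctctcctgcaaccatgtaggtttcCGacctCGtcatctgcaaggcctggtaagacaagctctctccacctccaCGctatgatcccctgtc
Gadl1: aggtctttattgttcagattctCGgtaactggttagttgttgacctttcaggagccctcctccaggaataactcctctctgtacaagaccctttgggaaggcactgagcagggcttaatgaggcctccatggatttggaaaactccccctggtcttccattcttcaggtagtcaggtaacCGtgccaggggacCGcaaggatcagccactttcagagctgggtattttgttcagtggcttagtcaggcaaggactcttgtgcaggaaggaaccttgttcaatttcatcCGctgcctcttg
Tgfbr2: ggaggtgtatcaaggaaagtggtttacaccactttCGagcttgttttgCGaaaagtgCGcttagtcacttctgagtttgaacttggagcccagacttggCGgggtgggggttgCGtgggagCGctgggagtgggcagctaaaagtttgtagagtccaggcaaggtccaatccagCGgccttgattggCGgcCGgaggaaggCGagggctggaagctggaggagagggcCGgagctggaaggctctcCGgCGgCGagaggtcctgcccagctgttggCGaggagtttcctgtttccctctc
Sall1: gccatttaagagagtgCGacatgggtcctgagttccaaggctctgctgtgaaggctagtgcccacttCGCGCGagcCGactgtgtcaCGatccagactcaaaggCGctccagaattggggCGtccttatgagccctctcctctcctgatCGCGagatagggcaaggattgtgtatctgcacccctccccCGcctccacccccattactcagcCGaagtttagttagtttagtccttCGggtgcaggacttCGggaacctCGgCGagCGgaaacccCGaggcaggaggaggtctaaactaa
These 300 bases hold 43 CG in Ptprm, 7 in Lrrc30, 4 in Gadl1, 15 in Tgfbr2 and 18 in Sall1. RefSeq promoters were matched by gene symbol. Of 19105 promoters of 15632 autosomal protein-coding genes that fall in scored bins, 984 (of 813 genes) lie in gaining bins. Their median was 13 CG, against 14 CG over all promoters, and 57.2% of them held at least 10 CG, against 59.4%. Separated by the sign of the score in Setdb1 WT, the 2 compartments went in opposite directions. At least 10 CG were found in 64.5% of gaining-bin promoters in A (95% Wilson interval 61.0% to 67.9%), against 68.7% of all promoters in A, and in 35.9% of gaining-bin promoters in B (30.2% to 42.0%), against 27.9% of all promoters in B. Wilson intervals here cover counting only. Neighbouring bins and promoters share their surroundings, so the intervals are too narrow.

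The rise that defined the bins was modest. The distance between the lower DKO and the higher WT score had a median of 0.00441 and reached 0.0173, and 565 of the 1537 bins had at least 0.005 and 42 at least 0.01. The median score was -0.00544 (WT), -0.00508 (WT + UNC), 0.00274 (DKO) and 0.00286 (DKO + UNC) in the Suv39h clones. The rule orders these values, so they are a description. For scale, the SD of a bin over the 4 Setdb1 libraries, which differ in treatment, had a median of 0.00280 over all bins, close to the 0.003 of the rule. The spread between repeats of 1 group was not measured here. The study reports a close correlation of the scores of its repeats over bins. Beside an SD over bins of 0.0272 in Suv39h WT, that still allows a spread in a single bin as large as 0.003. How many bins would meet the rule through that spread is not known. The 3 bins nearest to the threshold on the inside had distances of 0.0030005, 0.00300082 and 0.00300144. They are chr2:122500001-122600000, with part of Gatm, which makes the precursor of creatine, chr10:12000001-12100000, with no protein-coding gene, and chr13:42300001-42400000, with Edn1, the vasoconstrictor peptide endothelin 1. Just outside, at 0.00299955, 0.00299825 and 0.0029982, were chr14:66600001-66700000, with part of the adrenergic receptor gene Adra1a, chr1:55200001-55300000, with Rftn2, Mars2 and Boll, and chr17:67900001-68000000, with Arhgap28, which lies 100 kb beyond the end of a stretch of 5 gaining bins.

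The gaining bins came from both compartments. Of the 1537 bins, 919 (59.8%) scored below 0 in Suv39h WT, against 55.2% of all bins, and 699 (45.5%) did so in Suv39h DKO, against 54.0% of all bins. Both WT scores were negative and both DKO scores positive in 133 bins. All 4 scores were negative in 658 bins and positive in 599, and the other 147 bins had scores of both signs within the WT or the DKO pair. In Setdb1 WT, which the rule did not use, 868 gaining bins (56.5%, 95% Wilson interval 54.0% to 58.9%) lay in B, against 55.5% of all bins. For Setdb1 KO the share in B was also 56.5% and for Setdb1 KO + UNC it was 56.3%, against 55.3% and 55.4% of all bins, and was 53.4% in Setdb1 WT + UNC, against 55.3%. The position of 0 is not fixed by the data, and with the implied chromosome mean added to the scores the share in B of Setdb1 WT was 46.5%, against 48.7% of all bins.

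**Figure D1:**
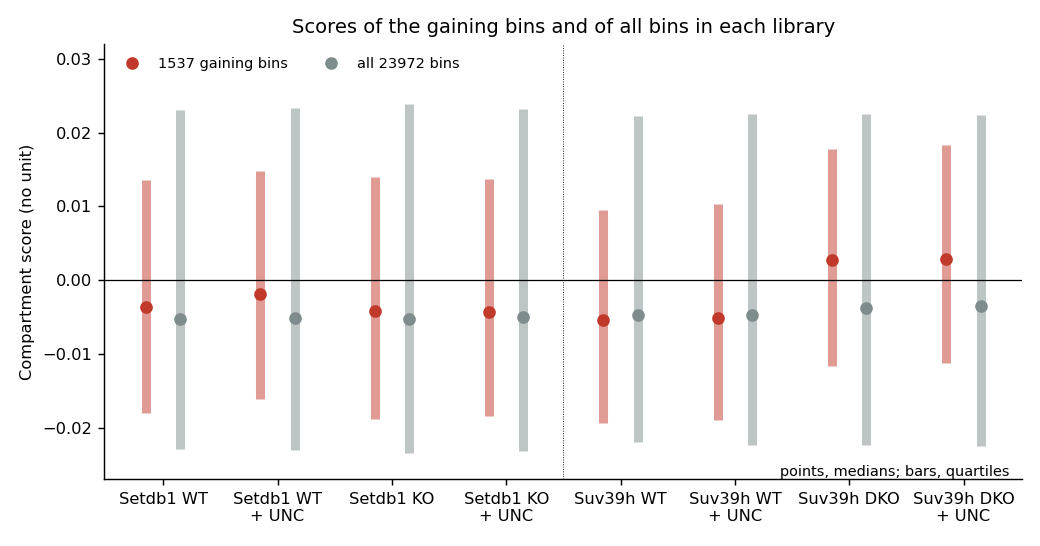
Compartment scores of the 1537 gaining bins (red) and of all 23972 bins (grey) in the 8 libraries. Points are medians and bars run from the lower to the upper quartile over bins. The medians of the gaining bins lie between -0.00427 and -0.00190 in the 4 Setdb1 libraries, and the order of the 4 Suv39h libraries is set by the selection.

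Gaining bins were most frequent where the Setdb1 WT score was near the middle of the range. When all bins were divided into 10 deciles by the Setdb1 WT score, gaining bins made up 3.21% of the most negative decile, 10.3% of the sixth decile (95% Wilson interval 9.19% to 11.6%) and 2.71% of the most positive decile (2.13% to 3.44%). Losing bins ran the other way, with 4.30% and 4.34% in the fifth and sixth deciles and 8.59% in the most positive one. The fourth to seventh deciles held 884 of the 1537 gaining bins. All bins near the middle also shifted upward between the Suv39h clones. From Suv39h WT to Suv39h DKO the mean change of all bins was 0.00109 in the sixth decile. It was -0.00104 in the most negative decile and -0.000605 in the most positive one. Under UNC0642 these 3 means were 0.00109, -0.000186 and -0.00149. The part of this shift in the peak was not tested. Scores near the middle also varied more among the 4 Setdb1 libraries, with a median SD over them of 0.00338 in the sixth decile and 0.00250 in the most positive decile. Over the gaining bins this SD was 0.00335, against 0.00280 over all bins. Its part in the selection was not tested.

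**Figure D2:**
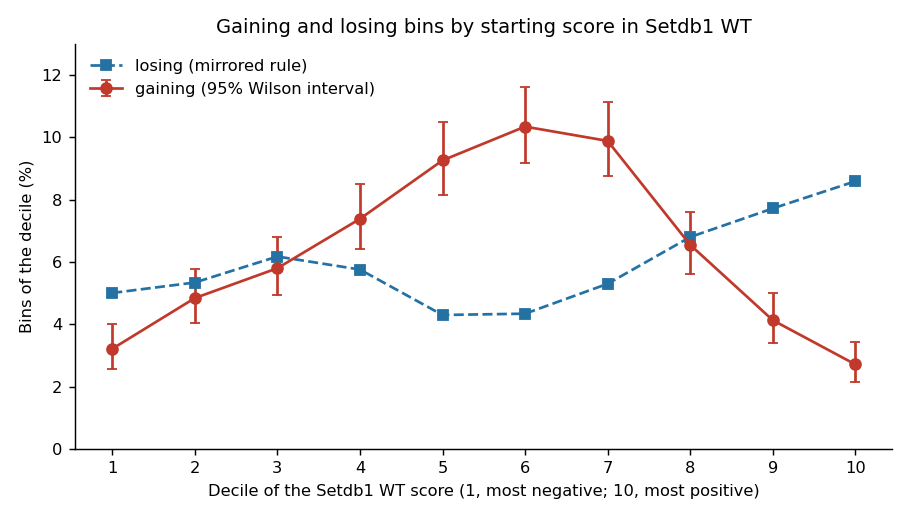
Share of bins that gain (red, with 95% Wilson intervals) or lose (blue) score with SUV39H1/2 loss in each decile of the Setdb1 WT score, in percent of the decile. Gaining bins peak at 10.3% in the sixth decile and fall to 3.21% and 2.71% at the ends.

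Gaining bins also lay close to compartment borders, taken as a change of sign between adjacent bins of Setdb1 WT. The median distance from the centre of a bin to the nearest border was 250 kb for gaining bins, 550 kb for all bins and 750 kb for losing bins. A border touched 26.1% of the gaining bins (95% Wilson interval 24.0% to 28.3%), 14.9% of all bins and 11.7% of losing bins. Scores near 0 lie near borders by construction, so this measure and the one by deciles are not independent. Along the chromosome, 10.7% of gaining bins fell in the last 10 Mb of scored sequence (9.22% to 12.3%), against 7.86% of all bins and 4.92% of losing bins, while 7.16% fell in the first 10 Mb, next to the centromere, against 7.88% of all bins.

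Every autosome held gaining bins. Their share was lowest on chromosome 5, with 53 of 1483 bins (3.57%), followed by chromosomes 8 (4.36%) and 7 (4.63%). It was highest on chromosome 13, with 109 of 1174 bins (9.28%), followed by chromosomes 17 (8.81%) and 1 (8.52%). The 95% Wilson interval was 2.74% to 4.64% for chromosome 5 and 7.75% to 11.1% for chromosome 13. Losing bins made up 4.11%, 3.01% and 4.34% of chromosomes 5, 8 and 7. They made up 6.90%, 7.51% and 6.96% of chromosomes 13, 17 and 1, against 5.93% of all bins. The named chromosomes were thus low or high in both directions. An eigenvector has unit length, so scores tend to be smaller on chromosomes with more bins. The fixed distance and the pooled deciles therefore do not mean the same on each chromosome. The part of this scale in the shares was not tested.

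Most gaining bins stood alone. The 1537 bins formed 1317 stretches, of which 1144 were single bins, 140 were of 2 bins, 23 of 3, 6 of 4 and 4 of 5. A share of 25.6% (393 bins, 95% Wilson interval 23.5% to 27.8%) had an adjacent gaining bin, against 22.5% (20.4% to 24.7%) among losing bins. When the same rule was applied to the Setdb1 libraries, with both KO scores above both WT scores by 0.003, the 1341 bins found were more clustered, with 40.3% next to another and a longest stretch of 7 bins. The bins were selected on the rise at the bin itself, so a peak there is set by the rule and is a description. Between Suv39h WT and Suv39h DKO the mean rise was 0.00773 in the bin itself, 0.00198 and 0.00195 in the bins on either side, and 0.000891 and 0.000839 at 1000 kb. With UNC0642 in both libraries it was 0.00750 in the bin and 0.00250 and 0.00238 beside it.

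In the Suv39h WT clone most gaining bins were local dips. In Suv39h WT 67.3% of the 1533 gaining bins with both neighbours scored lay below the mean of those neighbours, and in Suv39h WT + UNC 68.6% did. In Suv39h DKO this fell to 31.9% and in Suv39h DKO + UNC to 37.3%. These libraries made the selection, which favours low WT and high DKO scores. In the Setdb1 libraries the share was 52.8% (WT), 52.1% (WT + UNC), 53.8% (KO) and 53.4% (KO + UNC). The median difference from the neighbours was -0.00255 in Suv39h WT and -0.000362 in Setdb1 WT. Directly compared, Suv39h WT exceeded Setdb1 WT in 506 of the 1537 bins (32.9%), against 51.2% of all bins, with a median difference of -0.00279.

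**Figure D3:**
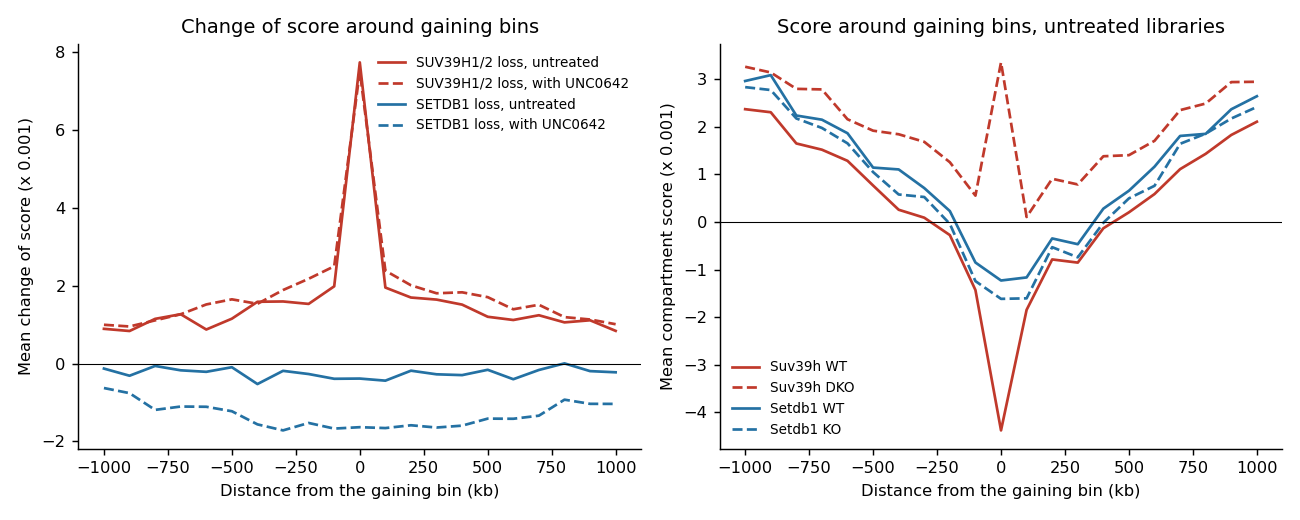
Mean change of score (left) and mean score (right), both in units of 0.001, at gaining bins and up to 1000 kb on either side, averaged over the 1525 to 1537 bins scored at each distance. The peak of the change with SUV39H1/2 loss (red, left) at the bin is set by the selection, and the change with SETDB1 loss under UNC0642 (blue dashes), which was not selected on, is below 0 over the whole window.

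Gaining bins overlapped a gene about as often as all bins but held fewer start sites. A protein-coding gene of GENCODE vM21 overlapped 62.7% of gaining bins (95% Wilson interval 60.3% to 65.1%), 64.7% of all bins and 68.2% of losing bins (65.7% to 70.6%). A start site of such a gene lay in 37.3% of gaining bins (34.9% to 39.7%), 41.9% of all bins and 46.3% of losing bins. The mean number of genes was 1.12 a bin, against 1.29 over all bins. The 2 compartments differed. In A of Setdb1 WT 78.8% of gaining bins (75.5% to 81.7%) and 87.3% of all bins overlapped a gene, whereas in B the shares were 50.3% (47.0% to 53.7%) and 46.6%. By start site, gaining bins held 1071 of 20713 protein-coding genes (5.17%), beside 6.41% of all bins. They held 412 of 5205 long intergenic noncoding RNA genes (7.92%), 151 of 2053 miRNA genes (7.36%) and 210 of 2906 antisense genes (7.23%). Shares were lower for processed pseudogenes, 517 of 8892 (5.81%), snRNA genes, 60 of 1292 (4.64%), and snoRNA genes, 62 of 1440 (4.31%).

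Gaining bins were richer in GC and poorer in repeats than all bins. Their median GC content was 42.9%, against 41.4% over all bins and 40.5% in losing bins, and their median share of soft-masked (repeat) sequence was 28.2%, against 31.7% and 33.9%. In B of Setdb1 WT the medians were 41.5% GC and 30.1% masked, against 39.2% and 36.4% over all bins in B. In A they were 45.0% GC and 26.1% masked, against 44.7% and 27.8%. Within each of the 10 deciles of the Setdb1 WT score the gaining bins had the higher median GC content, by 0.416 to 1.88 percentage points, and the lower masked share, by 0.581 to 7.97 points. The median GC content of the gaining bins was above that of all bins on 19 of 19 autosomes, and the median masked share was below it on 18 and above it on 1. Over all 23972 bins, which share libraries and neighbours, GC content correlated with the change from Suv39h WT to Suv39h DKO at r = 0.111 (Spearman's rho 0.131) and with the change under UNC0642 at r = 0.123 (rho 0.129). Whether base composition acts on the score through the libraries was not tested.

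By gene family, the counts follow the bins, since neighbouring family members share them. Overall 1584 of 20721 protein-coding genes (7.64%) overlapped a gaining bin. Among olfactory receptors, which detect odorants and lie in large clusters, 31 of 1128 (2.75%) did, in 10 bins, and among vomeronasal pheromone receptors 8 of 319 (2.51%), in 4 bins. No defensin-type gene (0 of 66, symbols beginning with Def) and no protocadherin (0 of 67) was in a gaining bin. Of the genes whose symbols begin with Krt, keratins and their associated proteins, 14 of 113 (12.4%) overlapped 4 bins, with Krt7, Krt81 and Krt86 in one of them and Krt4, Krt79 and Krt8 in another. Histone genes (symbols beginning with Hist) stood at 11 of 67 (16.4%), all from the cluster on chromosome 13 and in 2 bins. A long gene overlaps more bins, so these shares depend on gene length. Counted by start site, the share was 5.17% of all protein-coding genes. It was then 2.39% of olfactory receptors, 2.19% of vomeronasal receptors, 11.5% of Krt genes and 16.4% of histone genes.

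Zinc finger genes (symbols Zfp, Zscan, Zkscan and Zbtb) numbered 28 of 453 (6.18%) in 26 bins, among them the neighbours Zfp455, Zfp457 and Zfp458 on chromosome 13. Solute carriers numbered 35 of 372 (9.41%), ribosomal protein symbols 8 of 96 (8.33%), cytochromes P450 7 of 102 (6.86%), serpins 4 of 60 (6.67%), C-type lectin and Klr receptors 4 of 56 (7.14%) and Spink protease inhibitors 3 of 13 (23.1%, in 2 bins). Of the Hox genes, 4 of 39 were in a gaining bin, Hoxb6 to Hoxb9, all in 1 bin. None of 17 genes for H3K9 methylation and HP1, of 14 germline genes and of 24 lineage regulators overlapped a gaining bin, and of 20 pluripotency genes Klf4, one of the reprogramming factors, was the single member. Beside the 7.64% of all genes, lists this short say little: the upper ends of the 95% Wilson intervals of the 3 lists at 0 were 18.4%, 21.5% and 13.8%.

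The bin of Klf4 scored 0.01001 (WT), 0.0168 (WT + UNC), 0.00419 (KO) and 0.00910 (KO + UNC) in the Setdb1 line. It scored 0.00709 (WT), 0.0140 (WT + UNC), 0.0180 (DKO) and 0.0208 (DKO + UNC) in the Suv39h clones. It was in A in all 8 libraries. The bin of Hoxb6 to Hoxb9, transcription factor genes that pattern the body axis, was also in A throughout, at 0.0225 and 0.0231 in Suv39h WT and Suv39h WT + UNC, 0.0305 and 0.0310 in the DKO libraries, and 0.0294 to 0.0358 in the 4 Setdb1 libraries.

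The histone bin with Hist1h2bq scored 0.0127 and 0.00874 in Suv39h WT and Suv39h WT + UNC and 0.0268 and 0.0234 in Suv39h DKO and Suv39h DKO + UNC. In the Setdb1 line it scored 0.0289 (WT), 0.00916 (WT + UNC), 0.0307 (KO) and 0.0411 (KO + UNC). Of the 4 Setdb1 scores, those of the libraries without UNC0642 and of Setdb1 KO + UNC lay above both DKO scores, and Setdb1 WT + UNC lay among the Suv39h WT scores. Some histone genes are similar in sequence, and the study kept only reads above a mapping quality cut-off. Whether mapping affected the scores of this bin was not tested.

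The 8 longest stretches, the 4 of 5 bins and those 4 of the 6 of 4 bins with the largest mean distance, span the range of scores. Among those of 5 bins the largest mean distance was in chr17:67300001-67800000, 5 bins with the start of Ptprm, Lrrc30 and most of Lama1, the laminin alpha 1 chain of basement membranes. Its mean score was -0.0168 (WT), -0.0153 (WT + UNC), -0.00617 (DKO) and -0.00175 (DKO + UNC) in the Suv39h clones. In the Setdb1 line it was -0.0185 (WT), -0.0169 (WT + UNC), -0.0212 (KO) and -0.0224 (KO + UNC), so the stretch was in B in all 8 libraries and both KO scores were below both WT scores. Nearer the centromere on the same chromosome, chr17:66500001-66900000 (4 bins, with Rab12, a small GTPase, Themis3 and the end of Ptprm) scored -0.0107 and -0.00864 in the WT libraries and 0.000215 and 0.00318 in the DKO libraries. There the 4 Setdb1 libraries, from -0.0120 to -0.00784, did not separate by genotype. Ptprm overlapped 5 gaining bins of the 8 it spans, 4 of them in these stretches and the other between them. Alk, a receptor tyrosine kinase gene on chromosome 17 picked out after its values were seen, also overlapped 5, of 9.

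The stretch chr9:115900001-116400000 (5 bins), with Gadl1 and Tgfbr2, went from -0.0102 untreated and -0.00619 with UNC0642 in the Suv39h WT clone to 0.00211 and 0.00375 in the DKO clone. The 4 Setdb1 libraries lay between, at -0.00327 (WT), -0.000144 (WT + UNC), -0.00247 (KO) and -0.00188 (KO + UNC). Its mean was thus below 0 in both Suv39h WT libraries and in all 4 Setdb1 libraries, and above 0 in both DKO libraries.

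The gene-dense stretch chr4:63300001-63800000 (5 bins, 12 genes) holds the acute-phase plasma protein genes Orm1, Orm2 and Orm3, the hearing gene Whrn, the proton pump subunit gene Atp6v1g1 and the cytokine gene Tnfsf15. Its mean was -0.000171 (WT), 0.000335 (WT + UNC), 0.00573 (DKO) and 0.00710 (DKO + UNC) in the Suv39h clones. It was 0.00353 (WT), 0.00852 (WT + UNC), 0.000803 (KO) and 0.00184 (KO + UNC) in the Setdb1 line. Both Setdb1 KO scores lay below both Setdb1 WT scores, the reverse of the order in the Suv39h clones.

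Sall1 lies in chr8:88800001-89300000 (5 bins), an A stretch at 0.0196 and 0.0195 in the Suv39h WT libraries, and at 0.0256 untreated and 0.0273 with UNC0642 in the DKO clone. In the Setdb1 line it stood at 0.0155 (WT), 0.0239 (WT + UNC), 0.0142 (KO) and 0.0153 (KO + UNC), with Setdb1 WT + UNC apart from the other 3.

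The other 3 stretches are of 4 bins. On chromosome 13 a stretch with no protein-coding gene (chr13:71000001-71400000) scored -0.0148 and -0.0149 in the Suv39h WT libraries and -0.00277 and -0.00591 in the DKO libraries. In the Setdb1 line it scored -0.0288 in Setdb1 WT and -0.0323 in both KO libraries, but -0.0137 in Setdb1 WT + UNC, which was thus close to the Suv39h WT libraries. On chromosome 17, chr17:80600001-81000000, with Map4k3, a kinase of amino acid signalling, and Tmem178, rose from 0.00515 and 0.00749 to 0.0141 and 0.0188, and its Setdb1 scores ran from 0.0118 to 0.0187. On chromosome 14, chr14:21900001-22300000, with Zfp503, a developmental repressor, and the start of Lrmda, rose from 0.00204 and 0.00404 to 0.0132 and 0.0131, and its Setdb1 scores ran from 0.00135 to 0.0118.

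**Figure D4:**
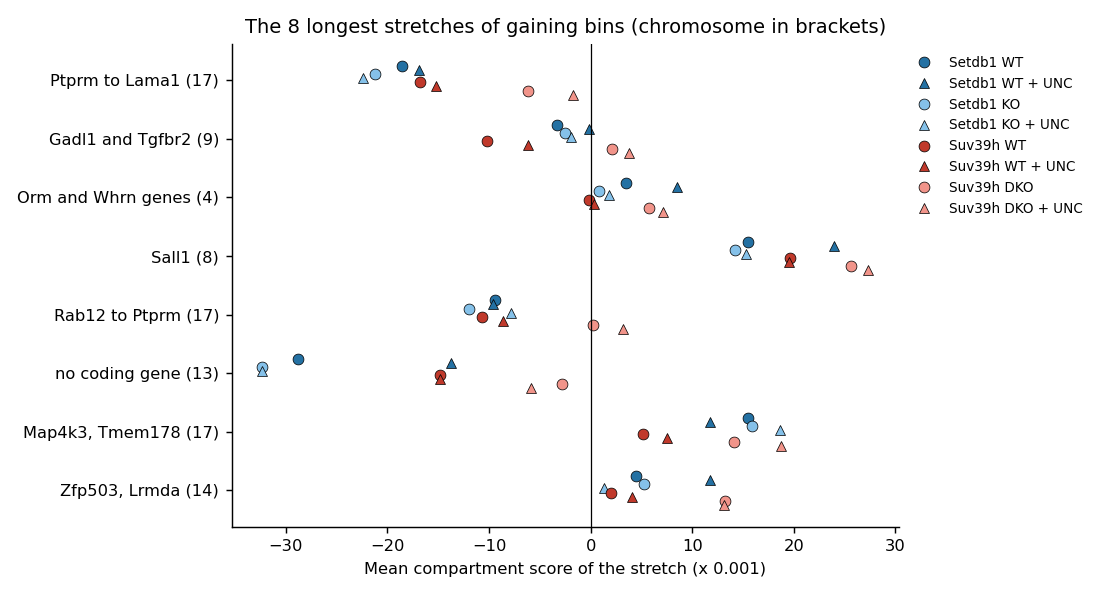
Mean compartment score, in units of 0.001, of the 8 longest stretches of gaining bins in each of the 8 libraries (blue, Setdb1 line; red, Suv39h clones; circles, untreated; triangles, with UNC0642). The means range from -0.0323 to 0.0273, and the stretch on chromosome 13 is the one in which Setdb1 WT + UNC lies farthest from the other Setdb1 libraries.

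The largest distance between the lower DKO and the higher WT score, 0.0173, was in chr19:32500001-32600000, with Minpp1, an inositol polyphosphate phosphatase, and the start of Papss2, which makes the sulfate donor of the cell. It scored -0.00526 (WT), -0.00562 (WT + UNC), 0.0120 (DKO) and 0.0137 (DKO + UNC) in the Suv39h clones. In the Setdb1 line it scored 0.00727 (WT), -0.000486 (WT + UNC), 0.00865 (KO) and 0.000356 (KO + UNC), so both UNC0642 scores lay below both untreated ones. The next bin by this distance, chr3:15600001-15700000, rose more between the untreated libraries (0.0323, against 0.0173), has no protein-coding gene and is 63.0% masked. It stayed deep in B, at -0.0696, -0.0642, -0.0373 and -0.0492 (WT, WT + UNC, DKO, DKO + UNC), as it did in the 4 Setdb1 libraries, at -0.0648, -0.0416, -0.0342 and -0.0403 (WT, WT + UNC, KO, KO + UNC). There Setdb1 WT was the low library.

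Other bins with a large distance held Kcnma1, the BK potassium channel (chr14:23800001-23900000, from -0.00319 and -0.00182 to 0.0138 and 0.0112), Lmcd1, a LIM domain protein (chr6:112200001-112300000, from -0.0151 and -0.0150 to -0.00219 and 0.00285), and 4930503E14Rik, Gm8212 and Gm8220 (chr14:44200001-44300000, from -0.0312 and -0.0324 to -0.0163 and -0.0138). The remaining 3, on chromosomes 13, 14 and 18, held no protein-coding gene. Of these, chr13:70300001-70400000 scored -0.0110 and -0.0135 in the Suv39h WT libraries and 0.00473 and 0.00283 in the DKO libraries. In the Setdb1 line it scored -0.0158 (WT), -0.00516 (WT + UNC), -0.0276 (KO) and -0.0231 (KO + UNC), with both KO scores below both WT scores.

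To ask whether the same bins respond when another H3K9 methyltransferase is lost, the 4 Setdb1 libraries were compared. Gaining bins scored lower with SETDB1 loss more often than all bins did. The mean fall was about as large in the bins beside them. From Setdb1 WT to Setdb1 KO their median change was -0.000477 and 45.3% rose, against -0.000122 and 48.6% over all bins. From Setdb1 WT + UNC to Setdb1 KO + UNC the median change was -0.00216 and 37.5% rose, against -0.000425 and 47.1%. Both pairs rose in 318 gaining bins, 20.7% (95% Wilson interval 18.7% to 22.8%), beside 25.0% of all bins. Both fell in 581, 37.8% (35.4% to 40.3%), beside 29.4% of all bins. Losing bins were shifted the other way, with both pairs up in 29.8% (27.5% to 32.2%) and both down in 23.8% (21.6% to 26.1%).

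By the rule that selected the gaining bins, applied to the Setdb1 line, gaining bins were lower more often than all bins and, with all 4 libraries, higher about as often. Both KO scores lay above both WT scores by 0.003 in 87 gaining bins (5.66%, 95% Wilson interval 4.61% to 6.93%), beside 5.59% of all bins, and below them by 0.003 in 143 (9.30%, 7.95% to 10.9%), beside 5.26% of all bins. Of the losing bins, 54 (3.80%, 2.92% to 4.92%) lay below and 94 (6.61%, 5.43% to 8.02%) above. Each library enters this count, and leaving 1 out makes the rule easier to meet. Without Setdb1 WT + UNC, 223 gaining bins (14.5%) lay below and 159 (10.3%) above, against 10.7% and 10.5% of all bins. The share below was 34.6% without Setdb1 WT, 20.8% without Setdb1 KO and 18.2% without Setdb1 KO + UNC, against 21.8%, 13.7% and 11.9% of all bins. The share above was then 16.2%, 12.2% and 9.63%, against 18.99%, 13.2% and 11.2% of all bins.

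GC content, which is higher in gaining bins, moved with the change under UNC0642. Over the 23972 bins it correlated with the change of SETDB1 loss under UNC0642 at r = -0.200 (Spearman's rho -0.209) and without UNC0642 at r = 0.00824 (rho 0.00785). Its part in the lower scores of the gaining bins under UNC0642 was not tested.

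The lower scores were seen from either starting compartment. Beside all bins of the same compartment the shift was alike in A and B without UNC0642 and was larger in B under UNC0642, a difference that was not tested. For gaining bins in A of Setdb1 WT the median change with SETDB1 loss was -0.000365 untreated and -0.00115 under UNC0642, against -5.41e-05 and -0.000295 over all bins in A. For those in B it was -0.000494 and -0.00295, against -0.000175 and -0.000537. Within the fourth to seventh deciles of the Setdb1 WT score, where gaining bins are most frequent, it was -0.000594 and -0.00312, against -0.000275 and -0.000586 over the 9588 bins there. Under UNC0642 the median of the gaining bins was below that of all bins on 17 of 19 autosomes, and without it on 13, with 5 above and the remaining one equal. The mean change with SETDB1 loss under UNC0642, which the rule did not use, was -0.00163 at the gaining bin and between -0.00172 and -0.00153 in the 4 bins on either side. Without UNC0642 it was -0.000386 at the gaining bin and -0.000391 and -0.000439 in the bins beside it. Neither fall was thus particular to the gaining bins.

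UNC0642 went with higher scores of the gaining bins in Setdb1 WT cells and with little shift in Setdb1 KO cells. The difference between these changes was not tested. From Setdb1 WT to Setdb1 WT + UNC the median change of gaining bins was 0.00166 and 60.9% rose, against 0.000219 and 51.6% of all bins. From Setdb1 KO to Setdb1 KO + UNC it was -6.19e-05 and 49.4% rose, against 6.39e-06 and 50.1%. The first change was not particular to the gaining bins: its mean was 0.00127 there, 0.00135 and 0.00121 in the bins on either side and 0.00131 and 0.00137 at 300 kb. It shares Setdb1 WT + UNC with the change of SETDB1 loss under UNC0642 and Setdb1 WT with that of SETDB1 loss without it. GC content correlated with the change in Setdb1 WT cells at r = 0.175 (Spearman's rho 0.182) and with that in Setdb1 KO cells at r = -0.110 (rho -0.103) over all bins. Both UNC0642 pairs rose in 437 gaining bins, 28.4% (95% Wilson interval 26.2% to 30.7%), beside 23.6% of all bins, and both fell in 278, 18.1% (16.2% to 20.1%), beside 21.9%. By a distance of 0.003, 44 gaining bins (2.86%, 2.14% to 3.82%) lay higher with UNC0642, beside 2.18% of all bins, and 21 (1.37%, 0.895% to 2.08%) lower, beside 1.80%.

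**Figure D5:**
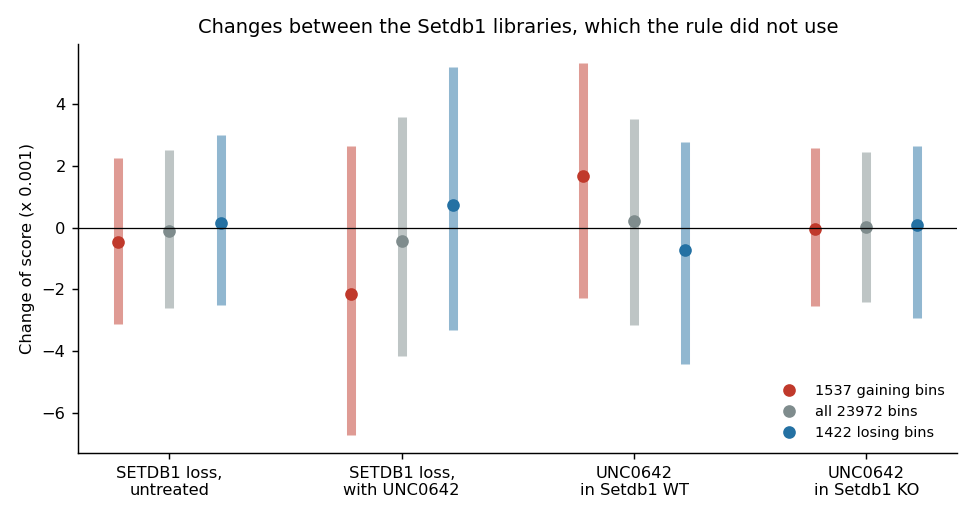
Change of score between Setdb1 libraries, in units of 0.001, for gaining (red), all (grey) and losing (blue) bins. Points are medians and bars run from the lower to the upper quartile over bins. The medians of gaining and losing bins are farthest apart for SETDB1 loss under UNC0642, at -0.00216 and 0.000730, and the quartile ranges overlap in every contrast.

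No single bin passed a test in the Setdb1 line. With limma over all 23972 bins, SETDB1 loss and UNC0642 as terms and Benjamini-Hochberg adjustment, 0 bins reached an adjusted p of 0.05 for SETDB1 loss (0% of all bins) and 0 for UNC0642 (0%). The lowest adjusted p of limma was 0.485 for SETDB1 loss, a value that chr13:70300001-70400000 shared with other bins through the adjustment, and was 1.00 for UNC0642. At an unadjusted p under 0.05, SETDB1 loss had 103 gaining bins lower (6.70%, beside 3.19% of all bins) and 82 higher (5.34%, beside 4.63%), and UNC0642 had 38 higher (2.47%, beside 1.10%) and 27 lower (1.76%, beside 1.60%). The fit had 1 residual degree of freedom, so a lack of calls says little, and the median standard error of a change was 0.00302.

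The 133 bins that were B in both Suv39h WT libraries and A in both DKO libraries were followed in the Setdb1 line. There 38 (28.6%) were in A without treatment and 58 (43.6%) with UNC0642 in WT cells, and 41 (30.8%) were in A in each of the 2 KO libraries. They were in A in all 4 Setdb1 libraries in 17 cases and in B in all 4 in 51. Of the 658 bins that stayed in B in the Suv39h libraries, 619 were in B in all 4 Setdb1 libraries, and of the 599 that stayed in A, 526 were in A in all 4.

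Measured against the Suv39h range of the same bin, the Setdb1 scores lay on both sides. Setdb1 WT was at or below the higher Suv39h WT score in 627 gaining bins (40.8%), between the WT and the DKO scores in 467 (30.4%) and at or above the lower DKO score in 443 (28.8%). In Setdb1 KO these shares were 45.5%, 25.7% and 28.8%, and in Setdb1 KO + UNC 45.0%, 25.6% and 29.3%. Setdb1 WT + UNC had fewer bins at or below the WT scores, with 28.0%, 39.2% and 32.9%.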

How the data were processed

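Hi-C of 8 mESC samples, 1 library a group, was used. Per the study's methods, the authors mapped reads to mm10 with the 4D Nucleome pipeline and made Knight-Ruiz (KR) normalised maps and eigenvectors with Juicer. More than one Hi-C experiment was done per the methods, and whether a file is a single experiment or a pool is not given in the sources used here. The deposited score is the first eigenvector of each autosome in bins of 100 kb, and the files hold no read counts. The study lists read numbers for each repeat, but since the repeat behind a file is not given, the depth behind a score could not be set here. The study also correlated the scores of its repeats over bins, but the scores of single repeats were not analysed here, so the spread of a bin between repeats was not measured.

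The bins and gene lists were chosen with earlier results of these data known. The regions named are the 8 longest stretches (ties in length going to the larger mean distance), the 8 bins with the largest distance, the 3 just inside and the 3 just outside the threshold. The genes named overlap those regions or belong to a gene list and overlap a gaining bin, except Alk, which was chosen after its values were seen. Genes came from GENCODE vM21 and promoters from RefSeq, both on GRCm38. The 4 Setdb1 libraries were fitted with limma 3.58.1 in R 4.3.3, with SETDB1 loss and UNC0642 as terms. This treats the 2 treatments as additive, and takes the spread from the departure from additivity. The fit was tested on simulated data, and with 1 residual degree of freedom it has little power. Shares carry 95% Wilson intervals. The alternatives were other distances, scalings, centrings and gene assignment, other limma settings, and leaving out each library.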

Additional observations from a re-analysis of the deposited data

How the results depend on the processing

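The number of gaining bins followed the distance asked for, with 565 bins at 0.005, 42 at 0.01 and 4929 at any distance above 0. It rose to between 3294 and 4215 when 1 library was left out (3294 without Suv39h WT, 3935 without Suv39h WT + UNC, 4215 without Suv39h DKO and 3748 without Suv39h DKO + UNC), because the rule is then easier to meet. Scaling each chromosome to the root mean square of Suv39h WT gave 1527 bins, 1490 of them shared with the 1537, and quantile normalization gave 1361, with 1239 shared. The eigenvector's chromosome mean was inferred from its unit length. Adding it gave 1687 gaining (1364 shared) and 1198 losing bins, and subtracting it gave 1289 gaining (1177 shared) and 1582 losing bins.

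The share in B of Suv39h WT was 65.1% at 0.005, 71.4% at 0.01, 50.1% with the mean added (47.6% of all bins) and 70.2% with it subtracted (61.5%). The share in B of Setdb1 WT was 60.2% at 0.005, 46.5% with the mean added, then below the 48.7% of all bins, and 64.2% with it subtracted (61.2%). An adjacent gaining bin was found for 15.8% at 0.005, 0% at 0.01 and 22.6% after quantile normalization. Counted at its start site, a gene was present in 37.3%. At 0.01, where 42 bins remain, UNC0642 went with higher scores in both pairs in 26.2%, near the 23.6% of all bins. The limma fits gave 0 calls under each of 8 alternatives, with lowest adjusted p of 0.175 to 0.635 for SETDB1 loss. Leaving out a library from this fit leaves no residual degree of freedom, so it was not run.

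The alternatives that follow were chosen after seeing the data. With SETDB1 loss, the untreated pair alone was higher in 45.3% and lower in 54.7% of gaining bins (higher in 48.6% of all bins), and the UNC0642 pair alone was higher in 37.5% and lower in 62.5% (higher in 47.1%). At 0.01, 45.2% of the 42 bins were lower in both pairs (29.4% of all bins) and 16.7% lower by 0.003 (5.26%). The share lower by 0.003 ran from 14.5% to 34.6% when 1 Setdb1 library was left out. Pairing by replicate number was not possible, because each group has 1 library. The pairs compared here are single libraries with the same UNC0642 treatment or genotype. The other 55 values moved by less than their interval, or for counts by less than 1.5 times.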
